A study of Mus musculus with 32 samples.

Results

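Toll-like receptors were followed through the kidneys of mice with and without the collagen gene Col4a3. The 10 receptor genes were taken by name (Tlr1 to Tlr9 and Tlr13), each from its single array feature that names 1 gene symbol, out of 22180 genes measured in this way. The 4 groups of 8 male mice on the 129 strain background were Col4a3-/- mice (KO) at 4 weeks, their Col4a3+/+ littermates (WT) at 4 weeks, and KO and WT mice at 7 weeks. Whole kidney RNA of each of the 32 mice was read on 1 Affymetrix Mouse Gene 2.0 ST array, and the values are gene-level signals on the log2 scale, so that a difference of 1 is a doubling. Col4a3 encodes a chain of the collagen network in the filtering membrane of the glomerulus, its loss models Alport syndrome, and the mutation is carried by all cells of the mouse.

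Toll-like receptors are sensors of innate immunity that recognise microbial molecules and some molecules released by injured tissue. Tlr1, Tlr2, Tlr4, Tlr5 and Tlr6 act at the cell surface on lipids and proteins, while Tlr3, Tlr7, Tlr8, Tlr9 and Tlr13 act in endosomes on nucleic acids. All of them but Tlr3 signal through the adaptor MyD88, and Tlr3 signals through the adaptor TRIF, which Tlr4 also uses. In the kidney they are found on resident and infiltrating leukocytes, and some also on tubular and endothelial cells.

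The data were first checked against the labels. Col4a3 ranged from 7.60 to 8.42 in KO mice and from 8.46 to 9.33 in WT mice at 4 weeks, and from 6.97 to 7.87 in KO mice and from 8.74 to 9.06 in WT mice at 7 weeks, so KO and WT did not overlap at either age. The 6 proximal tubule markers averaged 11.2 to 12.4 on all arrays, in keeping with the labelled tissue. No 2 arrays held identical values. WT mouse 8 at 4 weeks stood apart, with the highest signal of its group for 7 of the 10 receptors and a mean of 7.70 over 10 macrophage and monocyte markers, against 6.59 to 7.18 in the other WT mice of that age. Its T cell marker mean also stood apart, at 6.17 against 5.09 to 5.34 in those mice. The 95th percentile of 1105 olfactory receptor genes, a class with little known expression in kidney, lay at 5.44. The median of 8 receptors exceeded it in all 4 groups, that of Tlr6 in all but WT at 7 weeks, and that of Tlr8 in KO at 7 weeks only. The number of arrays limits the precision of every value below.

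The promoter stretches of 4 receptors are shown, because Tlr2, Tlr8 and Tlr13 had the largest measured genotype differences at 7 weeks and Tlr3 had the smallest among the endosomal receptors. RefSeq sequences of build GRCm38.p6 were found for 8 of the 10 genes, and each runs from 250 bases before to 50 bases after an annotated start, 5′ to 3′ on the strand of the gene. Capitals mark matches on either strand to GGGA, any 4 bases and then CC, a pattern of NF-kappa B sites, to AAANNGAAA, a pattern of interferon-stimulated response elements, or to GAGGAA, a core of sites of the myeloid factor PU.1. The patterns were chosen after the sequences were seen, and no matches of different patterns overlap in these stretches.
Tlr2, chr3:83841559-83841858, minus strand: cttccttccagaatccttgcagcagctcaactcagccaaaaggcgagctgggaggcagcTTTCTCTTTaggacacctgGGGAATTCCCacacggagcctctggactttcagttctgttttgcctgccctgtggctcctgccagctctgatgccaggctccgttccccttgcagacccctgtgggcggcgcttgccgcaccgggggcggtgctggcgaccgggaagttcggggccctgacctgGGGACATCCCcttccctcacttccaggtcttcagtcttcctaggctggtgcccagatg
Tlr3, chr8:45410331-45410630, minus strand: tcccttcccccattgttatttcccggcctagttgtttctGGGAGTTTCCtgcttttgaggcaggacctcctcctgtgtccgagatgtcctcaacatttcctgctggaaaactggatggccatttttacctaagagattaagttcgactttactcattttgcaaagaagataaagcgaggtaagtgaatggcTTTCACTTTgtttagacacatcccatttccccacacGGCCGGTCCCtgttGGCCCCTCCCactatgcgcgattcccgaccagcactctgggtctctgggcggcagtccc
Tlr8, chrX:167264280-167264579, minus strand: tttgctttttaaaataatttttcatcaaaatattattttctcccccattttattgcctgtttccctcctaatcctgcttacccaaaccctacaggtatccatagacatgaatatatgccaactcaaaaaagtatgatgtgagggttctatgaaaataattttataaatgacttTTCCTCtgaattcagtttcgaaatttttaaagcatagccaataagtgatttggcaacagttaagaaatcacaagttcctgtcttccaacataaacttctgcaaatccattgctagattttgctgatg
Tlr13, chrX:106143025-106143324, plus strand: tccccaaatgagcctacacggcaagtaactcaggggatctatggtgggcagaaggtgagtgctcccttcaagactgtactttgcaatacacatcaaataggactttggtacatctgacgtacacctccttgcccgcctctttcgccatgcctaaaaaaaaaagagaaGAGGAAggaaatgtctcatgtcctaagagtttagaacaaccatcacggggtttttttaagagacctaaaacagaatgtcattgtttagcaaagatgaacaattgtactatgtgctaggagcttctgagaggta
Tlr2 and Tlr3 held NF-kappa B-type and interferon-type letters, and Tlr8 and Tlr13 held the PU.1-type core. Of all 32851 promoter stretches of this length, 20.7% held the NF-kappa B pattern, 10.6% the interferon pattern and 28.3% the PU.1 core, so a match is a description of these letters and not a binding site.

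At 7 weeks all 10 receptors were higher in KO than in WT kidneys. All 10 passed in limma (adjusted p below 0.05 over 22180 genes), and for all 10 every KO mouse lay above every WT mouse. Of all genes tested, 15.6% rose and 16.7% fell at this age, and 7.62% had KO mice above WT mice without overlap. The higher calls were 48.4% of all calls, and 23.6% when the arrays were centred on the median of the named genes, a scaling under which the 10 receptors still rose. The median difference of the receptors was 1.42, against -0.06 for all genes tested. Macrophage and monocyte markers moved with the receptors: 10 of 10 rose, and their mean signal ranged from 8.27 to 9.59 in KO mice, against 6.68 to 6.95 in WT mice. The part of the leukocyte content in the receptor values was not tested, and in whole tissue more cells of a type and more RNA per cell cannot be told apart.

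**Figure D1:**
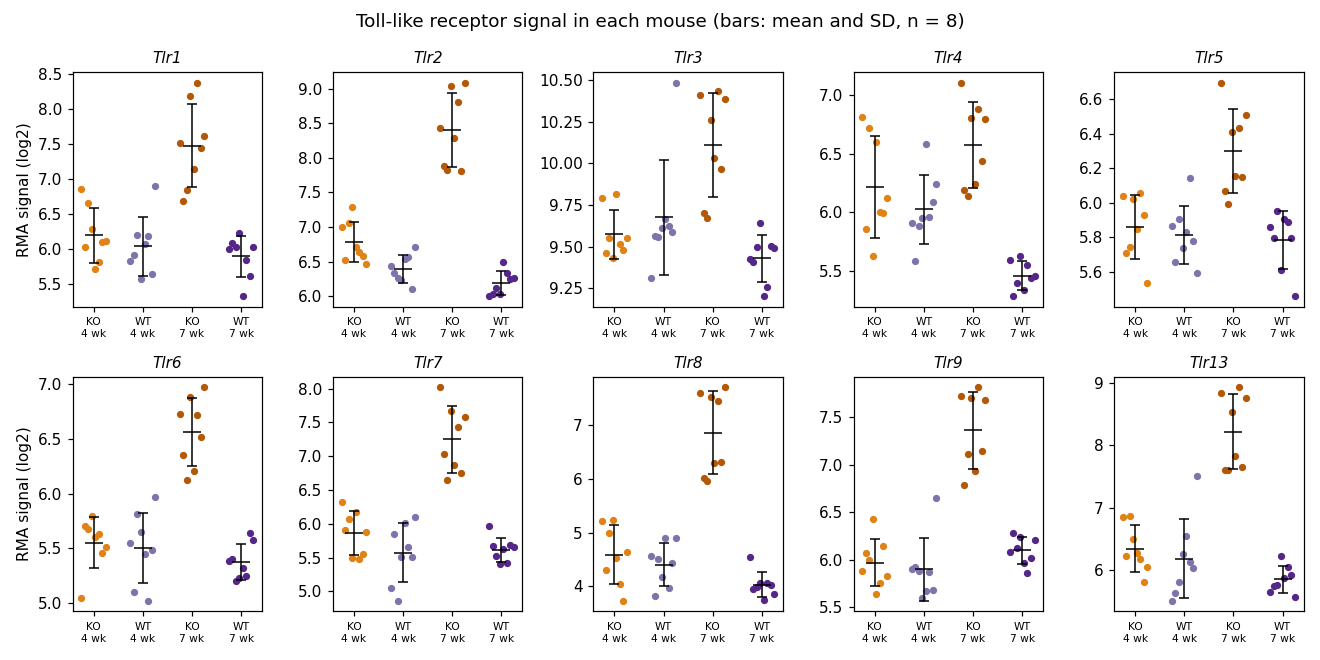
RMA signal (log2, vertical axis, scaled separately for each receptor) of each of the 32 mice, with KO and WT mice of 4 and 7 weeks along the horizontal axis; bars give mean and SD (n = 8). In every panel the 8 KO mice of 7 weeks lie above the 8 WT mice of 7 weeks, while the groups of 4 weeks overlap.

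Among the surface receptors Tlr2 had the largest difference. Tlr2, which binds bacterial lipopeptides as a partner of Tlr1 or Tlr6, had a lowest, median and highest signal of 7.82, 8.36 and 9.09 in KO mice, against 6.00, 6.18 and 6.49 in WT mice. The gap between the groups was wider than the range of the WT mice, and the difference was 2.21 ± 0.16 (SE, n = 8 per group), or 4.62-fold (limma adjusted p = 1.15e-12). Its partner Tlr1, a sensor of triacylated lipopeptides, gave 6.69, 7.48 and 8.37 in KO mice, against 5.33, 6.01 and 6.23 in WT mice. Tlr1 rose by 1.58 ± 0.20 (2.99-fold, limma adjusted p = 2e-07), with the KO mice spread over a wider range than the WT mice. The other partner, Tlr6, a sensor of diacylated lipopeptides, gave 6.12, 6.62 and 6.97 in KO mice, against 5.21, 5.35 and 5.64 in WT mice. Tlr6 rose by 1.18 ± 0.13 (2.27-fold, limma adjusted p = 5.47e-09). Only 2 of 8 WT mice lay above the olfactory percentile for Tlr6, so the WT signal may be background, which limits this fold. Tlr1 and Tlr6 lie next to each other on chromosome 5 and are close relatives, so cross-hybridisation between their probes was not tested.

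Tlr4, the lipopolysaccharide receptor, had a lowest, median and highest signal of 6.14, 6.62 and 7.11 in KO mice, against 5.28, 5.45 and 5.63 in WT mice. It rose by 1.12 ± 0.16 (2.17-fold, limma adjusted p = 6.91e-07), and 4 of 8 WT mice lay above the olfactory percentile. Tlr5, the flagellin receptor, had the smallest difference of the 10, with 6.00, 6.28 and 6.69 in KO mice and 5.46, 5.83 and 5.96 in WT mice. The lowest KO mouse lay just above the highest WT mouse, and Tlr5 rose by 0.52 ± 0.10 (1.43-fold, limma adjusted p = 6.41e-05).

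Among the endosomal receptors Tlr8 and Tlr13 had the largest measured differences and Tlr3 the smallest. Tlr8, a sensor of single-stranded RNA in humans, had 5.97, 6.88 and 7.71 as the lowest, median and highest signal in KO mice, against 3.75, 4.01 and 4.54 in WT mice. All 8 KO mice exceeded the olfactory percentile and 0 of 8 WT mice did, so the WT signal may be background and the change is given as a bound. With that percentile in place of the WT signal Tlr8 was at least 2.68-fold higher in KO mice, while the measured means of 6.86 in KO and 4.03 in WT mice differed by 2.83 ± 0.25 (limma adjusted p = 6.45e-11). Tlr13, a sensor of bacterial ribosomal RNA in mice, gave 7.60, 8.18 and 8.92 in KO mice, against 5.56, 5.82 and 6.22 in WT mice. The groups lay far apart, with a difference of 2.36 ± 0.23 (5.15-fold, limma adjusted p = 5.23e-10). Tlr7, which senses single-stranded RNA and neighbours Tlr8 on chromosome X, gave 6.65, 7.23 and 8.02 in KO mice, against 5.40, 5.64 and 5.96 in WT mice. It rose by 1.63 ± 0.18 (3.1-fold, limma adjusted p = 7.68e-09).

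Tlr9, the sensor of unmethylated CpG DNA, gave a lowest, median and highest signal of 6.79, 7.41 and 7.81 in KO mice, against 5.86, 6.10 and 6.29 in WT mice. It rose by 1.26 ± 0.14 (2.4-fold, limma adjusted p = 1.46e-08), and the groups were separated by about the width of the WT range. Tlr3, the sensor of double-stranded RNA, gave 9.67, 10.15 and 10.44 in KO mice, against 9.20, 9.46 and 9.64 in WT mice. It rose by 0.68 ± 0.12 (1.6-fold, limma adjusted p = 4.04e-05), and the lowest KO mouse stood close to the highest WT mouse. By exact two-sided permutation of the genotype labels, with 12870 possible assignments, each of the 10 receptors had p = 0.000155, the smallest that this design can give. This value follows from the lack of overlap between the groups and adds no support to it. Of all genes, 7.62% had KO mice above WT mice without overlap.

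**Figure D2:**
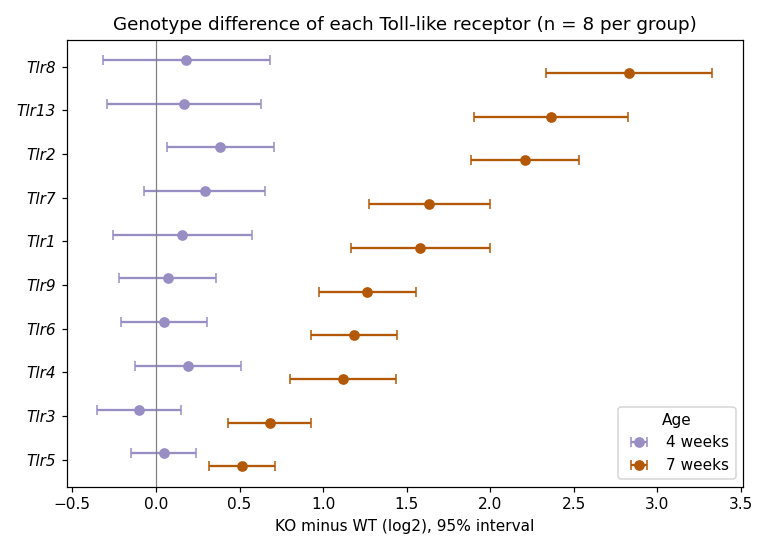
Difference between KO and WT mice (log2, horizontal axis) with its 95% interval from limma for each receptor, at 4 weeks and at 7 weeks (n = 8 per group). All 10 intervals of 7 weeks lie above 0, from Tlr5 at 0.52 to Tlr8 at 2.83, the last measured against WT signals in the olfactory range, while at 4 weeks only that of Tlr2 (0.06 to 0.71) does, before adjustment.

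The sizes of the differences were ordered Tlr8, Tlr13, Tlr2, Tlr7, Tlr1, Tlr9, Tlr6, Tlr4, Tlr3 and Tlr5, and the 95% intervals of neighbours in this order overlapped. Overlap of intervals is not a test of the difference between receptors, which was not made, and features differ in how fully they report a change. The place of Tlr8 rests on WT signals in the olfactory range.

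At 4 weeks none of the 10 receptors passed in limma. Over all genes 0.0406% passed at this age, and 1 receptor, Tlr2, had an unadjusted p below 0.05. Exact permutation tests adjusted over all genes passed 0 genes at this age. Even Col4a3, whose groups did not overlap, did not pass, so this test cannot decide about the receptors. The median difference of the receptors was 0.16, against -0.005 for all genes tested. Tlr2 had a lowest, median and highest signal of 6.47, 6.68 and 7.29 in KO mice, against 6.10, 6.39 and 6.72 in WT mice. Of the 8 KO mice, 3 exceeded every WT mouse, and the difference was 0.38 ± 0.16 (95% interval 0.06 to 0.71, limma adjusted p = 0.453). Tlr7 stood at 0.29 ± 0.18, with a median of 5.90 in KO and 5.58 in WT mice (limma adjusted p = 0.631). Tlr4 (0.19 ± 0.16), Tlr8 (0.18 ± 0.25), Tlr13 (0.17 ± 0.23) and Tlr1 (0.16 ± 0.20) had smaller differences, with KO and WT mice overlapping. Tlr9 (0.07 ± 0.14), Tlr6 (0.05 ± 0.13) and Tlr5 (0.05 ± 0.10) lay closest to 0. For Tlr8, 0 of 8 mice of either genotype exceeded the olfactory percentile at this age, so its signals may be background.

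Tlr3 was the only receptor with a negative difference at 4 weeks, at -0.10 ± 0.12 (limma adjusted p = 0.837). Its signal ran from 9.43 to 9.82 in KO mice and from 9.31 to 10.48 in WT mice, where mouse 8 was the highest. Without that mouse the Tlr3 difference was 0.014 ± 0.10 and that of Tlr13 was 0.35 ± 0.20, against 0.17 with it, and still 0 receptors passed. Leaving it out also moved Tlr1 to 0.28 against 0.16, Tlr9 to 0.18 against 0.07, Tlr6 to 0.11 against 0.05 and Tlr5 to 0.01 against 0.05. Tlr7 then stood at 0.37 against 0.29, with an unadjusted limma p of 0.0479 (adjusted p = 0.443). Tlr2 stood at 0.43 against 0.38, Tlr8 at 0.25 against 0.18 and Tlr4 at 0.22 against 0.19. Macrophage and monocyte markers averaged 6.88 to 7.62 in KO mice and 6.59 to 7.70 in WT mice at 4 weeks, with a median difference of 0.36 over the list, and 0 of 10 passed. The overlap came from WT mice 5 (7.18) and 8 (7.70), since the other 6 WT mice averaged 6.59 to 6.69, below all 8 KO mice. The part of these cells in the 4-week receptor values was not tested.

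The difference between the genotypes was larger at 7 than at 4 weeks for all 10 receptors. In the interaction test of limma 10 of 10 passed in this direction, against 9.8% of all genes, and the changes over the 4-week difference ran from 0.47 ± 0.14 for Tlr5 (adjusted p = 0.0139) to 2.65 ± 0.35 for Tlr8 (adjusted p = 2.36e-06). Between them lay Tlr13 (2.20 ± 0.32), Tlr2 (1.82 ± 0.22), Tlr1 (1.42 ± 0.29), Tlr7 (1.34 ± 0.25), Tlr9 (1.19 ± 0.20), Tlr6 (1.14 ± 0.18), Tlr4 (0.93 ± 0.22) and Tlr3 (0.78 ± 0.17). This comparison uses the same mice as the comparisons within each age. For Tlr8, 0 of 8 mice exceeded the olfactory percentile in each group but KO at 7 weeks. The size of its change therefore rests on signals that may be background. Of all interaction calls 57.5% were higher, and 33.2% with arrays centred on the named genes.

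From 4 to 7 weeks 9 of 10 receptors rose in KO mice and 0 rose in WT mice. Among all genes 21.4% rose over this time in KO mice and 15.4% in WT mice. Higher calls were 50.1% of the KO calls and 52.1% of the WT calls, against 65% and 72.7% with arrays centred on their median, and 35.1% of the KO calls with arrays centred on the named genes. In KO mice Tlr8 rose by 2.27 ± 0.25, Tlr13 by 1.87 ± 0.23, Tlr2 by 1.61 ± 0.16, Tlr9 by 1.39 ± 0.14, Tlr7 by 1.39 ± 0.18 and Tlr6 by 1.01 ± 0.13, and for these 6 every 7-week mouse exceeded every 4-week mouse, as was so for 6.89% of all genes. Smaller or overlapping rises were seen for Tlr1 (1.28 ± 0.20, 6 of 8 mice above the 4-week range), Tlr3 (0.54 ± 0.12, 6 of 8) and Tlr5 (0.44 ± 0.10, 7 of 8). Adjusted limma p values of these 9 were 0.000584 or lower. For Tlr8, 0 of 8 KO mice exceeded the olfactory percentile at 4 weeks, so the size of its rise rests on signals that may be background.

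Tlr4 was the only receptor without a call over time in KO mice, and its course was not tested against those of the other receptors. In KO mice its signal had a lowest, median and highest value of 6.14, 6.62 and 7.11 at 7 weeks, against 5.62, 6.06 and 6.81 at 4 weeks, a difference of 0.36 ± 0.16 that missed the threshold (limma adjusted p = 0.0604). In WT mice it gave 5.28, 5.45 and 5.63 at 7 weeks, against 5.58, 5.95 and 6.59 at 4 weeks. Tlr4 fell by 0.57 on the log2 scale in WT mice (SE 0.16, 1.48-fold, limma adjusted p = 0.00529), with 6 of 8 mice below every 4-week mouse, where 14.1% of all genes fell. The KO call depended on the processing, as it passed with array weights (adjusted p = 0.0130) and after centring of the arrays on their median (adjusted p = 0.0245). No other receptor passed in WT mice, where the remaining 9 differences lay between -0.38 ± 0.25 for Tlr8 and 0.20 ± 0.14 for Tlr9. The Tlr8 signals of WT mice lay below the olfactory percentile at both ages. Without WT mouse 8 of 4 weeks the WT difference over time was 0.31 for Tlr9 (unadjusted p = 0.0243, limma adjusted p = 0.0764), -0.14 for Tlr13 against -0.33 with it, and -0.13 for Tlr3 against -0.25. The same mouse moved Tlr1 to -0.02 against -0.14, Tlr6 to -0.06 against -0.13, Tlr5 to -0.06 against -0.03 and Tlr7 to 0.12 against 0.05.

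Within the KO group of 7 weeks the receptors divided the mice alike, though the highest and the lowest mouse differed between receptors. Mice 1, 4, 6 and 8 had a signal above the group median for 10 of 10 receptors, and mice 2, 3, 5 and 7 were below it for 10 of 10. Over all genes, 9.8% placed mice 1, 4, 6 and 8 above the other 4, and 9.6% placed them below. Tlr8 gave 7.60, 7.53, 7.45 and 7.71 in mice 1, 4, 6 and 8, against 6.02, 5.97, 6.31 and 6.31 in mice 2, 3, 5 and 7. The gap in Tlr8 was the widest of the 10, and no mouse lay between the sets. Averaged over the receptors, the deviation from the group mean was 0.39 to 0.42 in mice 1, 4, 6 and 8 and -0.52 to -0.29 in the others. All 10 macrophage and monocyte markers placed the mice in the same way, with means of 9.39 to 9.59 in mice 1, 4, 6 and 8 and of 8.27 to 8.77 in the others. So did 2 of 5 T cell, 2 of 5 dendritic cell and 2 of 8 neutrophil markers. Of the B cell markers 1 of 5 did so, and of the loop, distal tubule and collecting duct markers 1 of 6. Proximal tubule markers averaged 11.24 to 11.68 in mice 1, 4, 6 and 8 and 12.02 to 12.22 in the others. These sets were seen in the data and are not groups of the study, so no test was made between them.

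**Figure D3:**
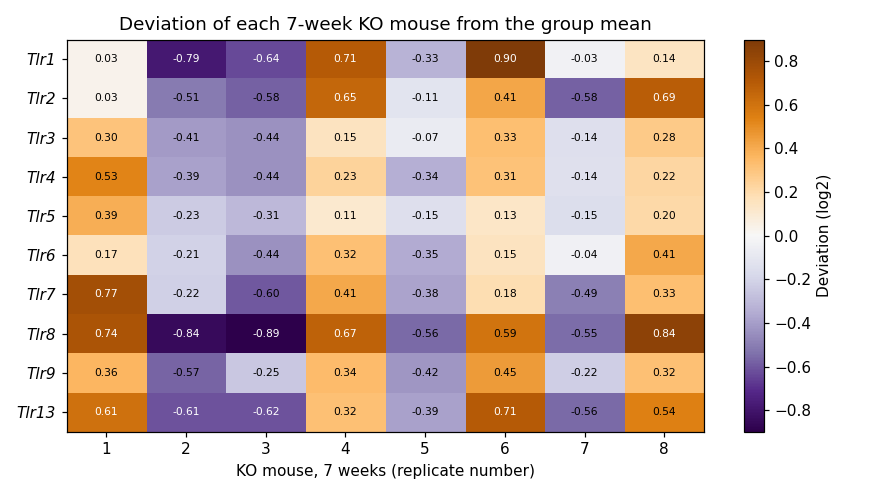
Deviation of each 7-week KO mouse (columns, replicate number) from the mean of the 8 KO mice, for each receptor (rows), on the log2 scale. Mice 1, 4, 6 and 8 are above the mean and mice 2, 3, 5 and 7 below it for every receptor.

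Genes around the receptors were then counted in lists that were chosen with earlier results of these data known. The counts are therefore a description and not independent support. Co-receptors and accessory proteins deliver ligands to the receptors, and 5 of 6 rose and 1 fell in KO mice at 7 weeks, against 15.6% higher and 16.7% lower among all genes. Cd14, which hands lipopolysaccharide and other ligands to Tlr4 and Tlr2, averaged 9.41 ± 0.54 (SD) in KO and 5.85 ± 0.32 in WT mice, a difference of 3.56 ± 0.26 (limma adjusted p = 1.71e-12). Lbp, the lipopolysaccharide-binding protein, rose by 1.71 ± 0.15, and Ly86, a secreted partner of a receptor-like protein of leukocytes, by 2.75 ± 0.28. The scavenger receptor Cd36, named after its value was seen, was the member that fell, with a difference of -0.70. Trafficking and processing genes serve the endosomal receptors, and 6 of 8 rose and 0 fell beside the same shares. Unc93b1, the chaperone that carries nucleic acid receptors to endosomes, averaged 9.23 ± 0.48 in KO and 7.59 ± 0.08 in WT mice (1.63 ± 0.19, limma adjusted p = 2.36e-08). The proteases Ctss (3.32 ± 0.27) and Ctsl (0.56 ± 0.06), which process endosomal receptors, also rose, while Slc15a4 (0.13 ± 0.09) and Cnpy3 (-0.09 ± 0.06) did not pass.

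Of 9 endogenous ligands, 5 rose and 0 fell, against 15.6% higher and 16.7% lower among all genes. Those that rose included the matrix genes tenascin, Tnc (3.54 ± 0.21, limma adjusted p = 7.69e-14), fibronectin, Fn1 (2.64 ± 0.20), and versican, Vcan (1.58 ± 0.14). The alarmin S100a9 averaged 5.30 ± 0.15 in KO and 5.44 ± 0.22 in WT mice and did not pass (-0.14 ± 0.09, limma adjusted p = 0.27), nor did Saa3 (0.16 ± 0.12). Saa3 (5.36 in KO, 5.20 in WT) and S100a9 in KO mice averaged below the olfactory percentile of 5.44, as did Vcan in WT mice (4.13). Signals there may be background, which limits what these differences show. S100a8 (0.06) and Hmgb1 (-0.004), named after their values were seen, were the other members that did not pass.

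Adaptors carry the signal from the receptors, and of 6 adaptors 4 rose and 0 fell, against 15.6% higher and 16.7% lower among all genes. Myd88 averaged 9.09 ± 0.22 in KO and 8.33 ± 0.08 in WT mice (0.76 ± 0.09, limma adjusted p = 3.84e-08), Pik3ap1, an adaptor to phosphoinositide 3-kinase, rose by 1.36 ± 0.14, and Ticam2, which bridges Tlr4 to TRIF, by 0.72 ± 0.11. Ticam1, which encodes TRIF, averaged 8.35 ± 0.11 in KO and 8.57 ± 0.20 in WT mice (-0.22 ± 0.10, limma adjusted p = 0.0783), and Sarm1 stood at -0.16 ± 0.08. Sarm1 (5.02 in KO, 5.17 in WT) and Ticam2 in WT mice (5.12) averaged below the olfactory percentile of 5.44. These signals may be background. Among 12 measured kinases and ubiquitin ligases downstream, 1 rose, 1 fell and 10 did not pass, which is no larger a count than these shares give for 12 genes. The kinase Ikbke rose by 0.80 ± 0.10 (limma adjusted p = 1.79e-07) and Irak1 fell (-0.22 ± 0.07, adjusted p = 0.0132), while Tab1 (-0.20 ± 0.08) and Ikbkb (0.22 ± 0.09) did not pass.

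Transcription factors at the end of the pathway rose in 5 of 6 cases and fell in 0, against 15.6% higher and 16.7% lower among all genes. The NF-kappa B subunits Rel (1.58 ± 0.13, limma adjusted p = 4.09e-11), Nfkb2 (1.38 ± 0.14) and Relb (0.82 ± 0.08) were higher in KO mice, whereas Irf3, which acts after Tlr3, stood at -0.01 ± 0.09. Of 9 genes that restrain the pathway, 4 rose and 3 fell beside the same shares. Tnfaip3, a deubiquitinase, rose by 1.65 ± 0.12 (limma adjusted p = 8.79e-13), Irak3, an inhibitory kinase of macrophages, by 1.24 ± 0.12, and Nfkbia, the inhibitor of NF-kappa B, by 0.66 ± 0.12. Socs1 (0.07 ± 0.12) and Cyld (-0.03 ± 0.06) did not pass, and the 3 that fell, named after their values were seen, were Dusp1 (-0.56), Sigirr (-0.36) and Tollip (-0.17). Of 14 cytokines and enzymes that the receptors can induce, 11 rose and 0 fell, where 15.6% of all genes rose. Ccl5 (4.57 ± 0.41), Cxcl2 (2.49 ± 0.19) and Nfkbiz (1.74 ± 0.13) had the smallest p values, while Il10 (-0.20 ± 0.09) and Il12b (0.13 ± 0.09) did not pass. Il10 (3.89 in KO, 4.09 in WT) averaged below the olfactory percentile of 5.44, as did Cxcl2 (4.79) and Relb (5.22) in WT mice. These signals may be background.

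**Figure D4:**
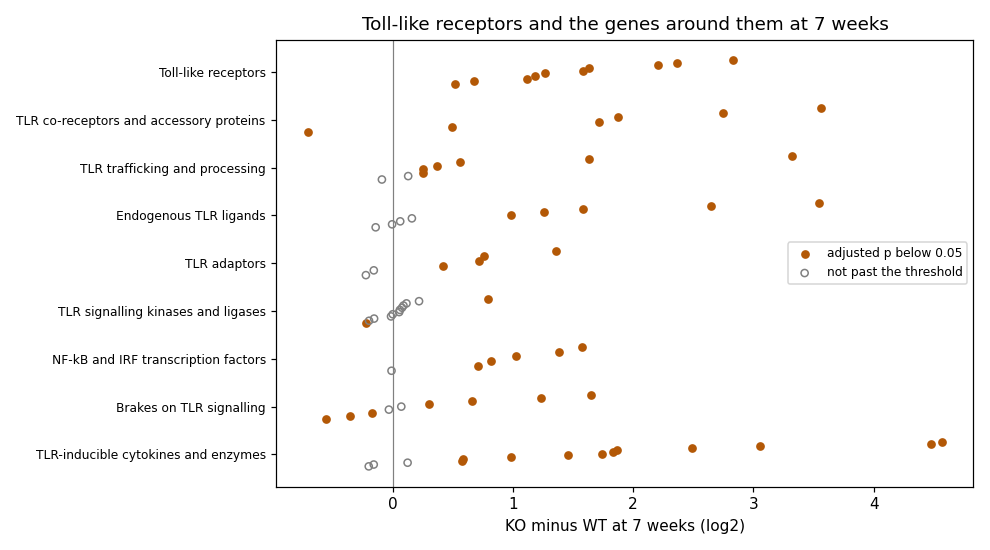
Difference between KO and WT mice at 7 weeks (log2, horizontal axis) for each measured gene of the Toll-like receptors and 8 lists of genes around them; filled points passed in limma and open points did not. The 10 receptors and most inducible cytokines lie right of 0, while 10 of the 12 kinases and ligases are open points near 0.

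At 4 weeks 0 genes of these 8 lists passed, against 0.0406% of all genes. List medians at that age ran from -0.07 for kinases and ligases to 0.26 for co-receptors, beside 0.16 for the receptors. In the interaction test 9.8% of all genes were higher and 7.24% lower. Higher there were 10 of 14 inducible cytokines and enzymes, 4 of 6 co-receptors, 4 of 6 adaptors, 4 of 6 transcription factors, 5 of 9 ligands, 3 of 8 trafficking genes, 3 of 9 brakes and 1 of 12 kinases and ligases. Lower there were 1 co-receptor, Cd36 (-0.74), and 1 brake, Sigirr (-0.44), both named after their values were seen.

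Markers of some other cell types also rose at 7 weeks, in unequal shares. The neutrophil count below is little more than the share of all genes gives for 8 genes, and the median difference of that list was 0.02. For B cell markers the median difference was 0.14, and 0 of 5 passed in the interaction test. Beside all 10 macrophage and monocyte markers, 3 of 5 dendritic cell markers, 2 of 4 plasmacytoid dendritic cell markers, 4 of 5 T cell markers, 2 of 5 B cell markers and 2 of 8 neutrophil markers rose, against 15.6% higher and 16.7% lower among all genes. Mean dendritic cell marker signal was 6.55 to 7.21 in KO and 5.84 to 6.19 in WT mice. Neutrophil markers averaged 4.95 to 5.27 in KO and 4.78 to 5.06 in WT mice, below the olfactory percentile in every mouse. All 6 proximal tubule markers fell, 2 of 6 endothelial and 2 of 6 loop, distal tubule and collecting duct markers fell with 0 rising, and 0 of 4 podocyte markers passed. The differences of the 10 macrophage and monocyte markers ran from 0.56 to 4.07, with a median of 2.36.

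The genes most similar to each receptor were listed by Pearson r over the 32 arrays, as a description in which all genes share the group structure. Tlr13 was most like Cybb (r = 0.98), the phagocyte oxidase subunit, Cxcl16 (0.98) and Fcer1g (0.98), an adaptor of Fc receptors. Tlr8 was most like Dock10 (0.98) and Rel (0.97), Tlr2 like Dock10 (0.98) and Klf6 (0.97), Tlr1 like Fyb (0.96) and Lcp1 (0.95), and Tlr7 like Btg2 (0.95) and Alox5ap (0.95). Tlr9 was most like Unc93b1 (0.97), its own chaperone, and the leukocyte integrin chain Itgb2 (0.97). Tlr6 was closest to Myo1g (0.95) and Tnfrsf1b (0.94), Tlr4 to Stk17b (0.96) and Tmsb4x (0.95), and Tlr5 to Nradd (0.90) and Tgfb2 (0.87). The genes most like Tlr3 were the interferon-induced genes Epsti1 (0.96) and Ifi44l (0.93) and the MHC class I light chain B2m (0.94).

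The ranking changed in part when each group's mean was subtracted, which leaves only the variation among mice of a group. In first place under both measures were Epsti1 for Tlr3 (r = 0.92 within groups), Dock10 for Tlr8 (0.89), Fyb for Tlr1 (0.86), Myo1g for Tlr6 (0.82) and Nradd for Tlr5 (0.77). For Tlr3 the next were Ifi44l (0.91) and, in place of B2m, Cxcl16 (0.88), which was also among the 3 genes nearest to Tlr13 (0.90). Other genes came first for Tlr13 (Alox5ap, 0.92), Tlr4 (Sh3bgrl, 0.92), Tlr9 (Arrb2, 0.87), Tlr7 (Tank, 0.86) and Tlr2 (Fxyd5, 0.81). Among the receptors themselves this measure ran from 0.08 for Tlr5 and Tlr6 to 0.82 for Tlr3 and Tlr13.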

How the data were processed

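Whole-kidney RNA of 32 mice in 4 groups of 8 was measured on 1 array each. Per the labels, the authors deposited gene-level log2 values after RMA in Affymetrix Expression Console, version not given in the sources used here. Scan batches were not analysed here. Sample groups and replicate numbers came from the titles, and all columns were used. Features naming exactly 1 symbol were kept (23521 of 41345), the highest mean feature per symbol was taken, and symbols were updated through RefSeq for 21994 of 22180 genes. No filter or pseudocount was applied.

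Group comparisons used limma 3.58.1 (R 4.3.3), with 1 mean per group over all 32 arrays and moderated variances, and Benjamini-Hochberg adjustment ran across the 22180 genes (threshold 0.05). The script was tested on simulated data. Same-numbered mice did not deviate together (correlations from -0.27 to 0.23), so no pairing was used. Titles number 8 samples per group. Each limma p value sets a group difference against the variation between samples within groups, pooled over all 32 arrays and moderated.

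The receptors and gene lists were chosen with earlier results of these data known. Receptors were named in every comparison; per list, the members with the lowest p at 7 weeks (up to 3 that passed, up to 2 that did not); and the 3 genes most similar to each receptor, of which the text gives the nearest. List genes without a feature of their own were not analysed here. Alternatives covered centring, quantile normalization, feature choice, a filter on dim features, variance models, array weights, a replicate block, exact permutation and leaving out each mouse.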

Additional observations from a re-analysis of the deposited data

Results flagged for a closer look

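Of the 40 sets of 8 mice (10 receptors in 4 groups), 4 held a value far from the rest, where chance alone gives about 1 in 20. Tlr3 and Tlr9 in WT mouse 8 at 4 weeks, at 10.485 and 6.6472, were the highest of their group, and this mouse also had the highest macrophage and monocyte marker mean of its group (7.70). Its T cell (6.17), dendritic cell (6.66) and plasmacytoid dendritic cell (6.79) marker means were the highest as well, while its neutrophil marker mean was not. Tlr6 in KO mouse 1 at 4 weeks was the lowest at 5.051, and Tlr8 in WT mouse 1 at 7 weeks the highest at 4.5394.

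The genotype difference was larger at 7 than at 4 weeks in the interaction test for each receptor, by 1.4237 for Tlr1, 1.8234 for Tlr2, 0.78138 for Tlr3, 0.92815 for Tlr4, 0.4707 for Tlr5, 1.1364 for Tlr6, 1.3405 for Tlr7, 2.6485 for Tlr8, 1.1926 for Tlr9 and 2.1988 for Tlr13 on the log2 scale. The value of Tlr8 rests on signals in the olfactory range in all groups but KO at 7 weeks.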

How the results depend on the processing

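The 10 receptors higher at 7 weeks, the 0 at 4 weeks and the 10 in the interaction test kept these counts under every alternative that was run and without each of the 32 mice. At 4 weeks exact permutation passed 0 of all genes, so the 0 receptors under it add no support. The count of receptors that changed from 4 to 7 weeks was 9 to 10 in KO mice, where it turned on Tlr4, and 1 in WT mice. The array medians of the named genes differed by 0.11 between KO and WT mice at 7 weeks, and centring on them left 10 receptors past the threshold. Tlr4 in KO mice also passed with quantile normalization (0.38, adjusted p = 0.0450), with a filter on dim features (adjusted p = 0.0443) and without WT mice 5 and 8 of 4 weeks, chosen after seeing the data (adjusted p = 0.0482), and without any 1 of KO mice 1, 3 and 5 of 4 weeks, KO mice 2, 3 and 5 of 7 weeks or WT mouse 5 of 4 weeks (lowest adjusted p = 0.0191, highest 0.0493). All 10 receptors met the filter, which asked for 8 arrays, but Tlr8 did so on 8 arrays only, those of KO mice at 7 weeks. Tlr6 did so on 11 arrays, which included all 8 of KO mice at 7 weeks. Without that group neither would have met the filter, so the filter is no added support for Tlr6 and Tlr8. With the replicate number as a block, a pairing the design does not give, the counts were 10, 0, 10, 9 and 1; 1 to 2 of 8 mice per comparison resembled their own number best. Signs turned only for differences near 0 that did not pass. Tlr5 in WT mice over time was 0.054 with arrays centred on their median, 0.056 with quantile normalization, and ran from -0.062 to 0.016 when 1 mouse was left out. Tlr7 in WT mice over time ran from -0.053 to 0.12, Tlr6 at 4 weeks from -0.021 to 0.12 and Tlr3 at 4 weeks from -0.15 to 0.014 when 1 mouse was left out, and without WT mice 5 and 8 of 4 weeks Tlr3 at 4 weeks was 0.032 and Tlr1 in WT mice over time 0.0045. The cause of these shifts was not tested. Over all genes, the 9 calls at 4 weeks became 1 with only the 2 groups fitted, 0 by exact permutation, 5 with array weights, 72 without WT mice 5 and 8, and 3 to 24 when 1 mouse was left out. The 7167 calls at 7 weeks became 10892 with arrays centred on the named genes. With all features tested, the calls over time were 14557 against 9453 in KO mice and 10574 against 6553 in WT mice. The genotype calls were then 8902 against 7167 at 7 weeks and 7 against 9 at 4 weeks, and the interaction calls 3979 against 3779. The reason for these changes in count was not tested. The exact permutation test and the fit of only 2 groups were not run for the interaction. Tlr8 outside the 7-week KO group lay in the range of olfactory receptor genes, so dim signal limits its fold.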

Other observations

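Tlr11 and Tlr12, the other Toll-like receptors on the array, were outside the set of 10 and are given after their values were seen. Tlr11, a sensor of profilin of protozoa in mice, ranged from 6.00 to 7.30 in KO mice, against 5.24 to 5.58 in WT mice at 7 weeks, and rose by 1.07 ± 0.18 (n = 8 per group). Tlr12 ranged from 5.14 to 5.73 in KO mice, against 5.22 to 6.05 in WT mice, a difference of -0.14 ± 0.11 (limma adjusted p = 0.388). From 4 to 7 weeks Tlr12 rose in WT mice by 0.34 ± 0.11 (limma adjusted p = 0.0212), while none of the 10 receptors and 15.4% of all genes rose there. In WT mice Tlr12 averaged 5.21 at 4 weeks and 5.55 at 7 weeks, and Tlr11 averaged 5.44 at 7 weeks. The olfactory percentile was 5.44, so these signals may be background.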
